A study of Mus musculus with 3 samples.

Results

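S phase alveolar macrophages were the airspace macrophages that carried many transcripts of DNA replication genes and stayed under a set limit for mitosis genes. They numbered 524 of 10844 macrophages and of 15809 cell barcodes in all, with 164 in the filtered air library, 94 in the 1 ppm ozone library and 266 in the 1.5 ppm ozone library. They came from single-cell RNA sequencing of cells washed out of mouse lungs, in which each transcript molecule is counted once by its unique molecular identifier (UMI). A barcode counted as a macrophage when it had at least 5000 UMIs, at least 300 genes, at most 10% mitochondrial UMIs and at least 3 of 8 macrophage genes (Marco, Siglecf, Krt79, Ear2, Atp6v0d2, Bhlhe41, Chil3, Pparg). It was a member when 12 S phase genes (Mcm2 to Mcm7, Hells, Dtl, Ung, Uhrf1, Cdc6, Gins2) made up at least 0.1% of its UMIs while 8 G2 and M phase genes (Mki67, Ccnb1, Ccnb2, Birc5, Ube2c, Cenpf, Cenpa, Tpx2) stayed under 0.05%. The members were thus selected on the measured levels of these 28 genes, and every contrast of members with other macrophages is given as a description.

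All 3 groups were wild-type C57BL/6J mice of 12 weeks, and no allele or agent other than the exposure was named in the labels. The exposure lasted 3 hours and was to filtered air in the first group, to ozone at 1 ppm in the second and to ozone at 1.5 ppm in the third, and the right lung lobes were lavaged 22 to 24 hours later. Cells of 3 to 4 mice were pooled, giving 1 library per group. Single mice cannot be traced in a pool, an effect of exposure and an effect of library cannot be told apart, and no test between groups is possible. The intervals given are 95% intervals of counting error.

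A dividing cell copies its genome in S phase and separates the copies in mitosis. Before copying starts, Cdc6 and its partners load the ring of Mcm2 to Mcm7 onto replication origins, and that ring later unwinds DNA ahead of the polymerases. E2F transcription factors, released from the retinoblastoma protein once cyclin D and cyclin E kinases act, switch on most of these genes in animal cells. Alveolar macrophages, the resident phagocytes of the airspace, are known to maintain themselves largely by division within the lung.

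The start regions of the S phase genes are shown because the E2F family is best known for this gene group, and because the genes were high together in the members by choice. RefSeq windows of build GRCm38.p6, from 250 bases before to 50 bases after each gene start, matched 10 of the 12 S phase genes. The letters searched on both strands were TTTCCCGC, TTTCGCGC, TTTGCCGC and TTTGGCGC. At least 1 of them stood in 7 of the 10 windows (70%), namely those of Mcm3, Mcm5, Mcm6, Mcm7, Dtl, Cdc6 and Hells, and in 2.32% of the 27025 windows of all genes. The letters were found in 0 of 7 matched G2 and M phase genes of the rule and in 0 of 7 matched macrophage genes of the rule. Printed here are the 200 bases before the start of 5 of those genes, 5′ to 3′ on the gene's strand, with matches in capitals.
Mcm6: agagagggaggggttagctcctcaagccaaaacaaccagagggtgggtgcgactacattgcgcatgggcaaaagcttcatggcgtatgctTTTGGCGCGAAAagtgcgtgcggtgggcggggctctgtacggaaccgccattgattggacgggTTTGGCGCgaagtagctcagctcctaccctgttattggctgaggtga
Mcm5: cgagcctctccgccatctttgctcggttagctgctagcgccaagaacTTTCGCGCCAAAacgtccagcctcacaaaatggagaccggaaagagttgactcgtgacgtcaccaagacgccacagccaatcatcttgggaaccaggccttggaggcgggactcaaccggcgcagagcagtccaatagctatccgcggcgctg
Cdc6: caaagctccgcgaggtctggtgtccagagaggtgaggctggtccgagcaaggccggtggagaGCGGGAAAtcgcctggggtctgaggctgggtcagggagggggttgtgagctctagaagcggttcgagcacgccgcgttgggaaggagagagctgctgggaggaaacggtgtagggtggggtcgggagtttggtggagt
Hells: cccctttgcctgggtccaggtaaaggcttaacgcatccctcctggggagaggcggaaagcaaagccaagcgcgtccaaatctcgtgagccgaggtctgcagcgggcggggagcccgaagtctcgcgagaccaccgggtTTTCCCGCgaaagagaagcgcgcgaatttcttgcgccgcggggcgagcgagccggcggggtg
Dtl: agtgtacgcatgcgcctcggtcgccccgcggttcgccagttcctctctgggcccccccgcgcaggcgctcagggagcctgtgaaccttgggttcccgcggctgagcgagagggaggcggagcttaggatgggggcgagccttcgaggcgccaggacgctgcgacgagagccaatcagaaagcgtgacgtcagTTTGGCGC
The stretch of Mcm6 lies at chr1:128359706-128359905 on the minus strand and holds overlapping matches that begin 110 and 106 bases before the start, with another 47 bases before it. That of Mcm5 lies at chr8:75109309-75109508 on the plus strand, with overlapping matches 153 and 149 bases before the start. That of Cdc6 lies at chr11:98907951-98908150 on the plus strand with its match 138 bases before the start. That of Hells lies at chr19:38930790-38930989 on the plus strand with its match 62 bases before the start, and that of Dtl at chr1:191575545-191575744 on the minus strand with its match 8 bases before the start.

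The G2 and M phase genes of the rule differed from the S phase genes in these windows. The letters TTTGAA, the core of the cell cycle genes homology region used by mitotic genes, stood on either strand in 5 of the 7 matched G2 and M phase genes (71.4%), in 1 of the 10 matched S phase genes (10%, Mcm2) and in 18.1% of all windows. The opening TTTG is common to these letters and to 2 of the E2F runs. A match shows that the letters are there and nothing about binding.

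The libraries held 5307, 3233 and 7269 barcodes and between 42825676 and 95403078 UMIs each. Macrophages by the rule numbered 3287 in filtered air, 2117 in 1 ppm and 5440 in 1.5 ppm. The mitochondrial limit removed 18.6% and 15.5% of barcodes of at least 5000 UMIs in the air and 1 ppm libraries and 1.19% in the 1.5 ppm library, so it weighed unequally. Pairs of libraries shared 4, 10 and 4 barcodes, and no member barcode was shared. Scrublet, a doublet caller, marked 0 members, but with only 2, 11 and 2 cells marked per library the caller cannot be relied on, and doublets may remain among the members.

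At the thresholds of the rule, the share of macrophages that met it was alike in the 3 libraries. This likeness depends on the G2 and M phase limit. Macrophages past the S phase threshold with either mitotic level were 7.03%, 6.28% and 12.4%. Members made up 4.99% of macrophages in filtered air (interval 4.27 to 5.79%), 4.44% in 1 ppm ozone (3.60 to 5.41%) and 4.89% in 1.5 ppm ozone (4.33 to 5.50%). Each of these intervals contains the other 2 shares. After every macrophage was thinned to 5000 UMIs, which removes differences in depth, the shares were 6.05%, 5.24% and 6.36%. At this number of cells, differences smaller than the width of these intervals could not be detected.

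Macrophages with as many S phase transcripts but over the G2 and M phase limit did not keep that level across libraries. They made up 2.04% of macrophages in filtered air (1.58 to 2.58%), 1.84% in 1 ppm (1.31 to 2.51%) and 7.5% in 1.5 ppm (6.81 to 8.23%). Macrophages over the G2 and M phase limit alone made up 3.74%, 3.92% and 10.1%. All macrophages past the S phase threshold, with either mitotic level, were 7.03% in filtered air (6.18 to 7.96%), 6.28% in 1 ppm (5.29 to 7.40%) and 12.4% in 1.5 ppm (11.5 to 13.3%). Members were thus 71.0% of the S-high macrophages in air, 70.7% in 1 ppm and 39.5% in 1.5 ppm, with intervals of 64.7 to 76.8%, 62.2 to 78.2% and 35.8 to 43.3%. Thinned to 5000 UMIs, the same fractions were 72.4%, 73.0% and 43.7%. The interval at 1.5 ppm lies below the other 2, at full depth and thinned. With a single pool per exposure, this difference is between these libraries, and mice were not sampled separately.

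**Figure D1:**
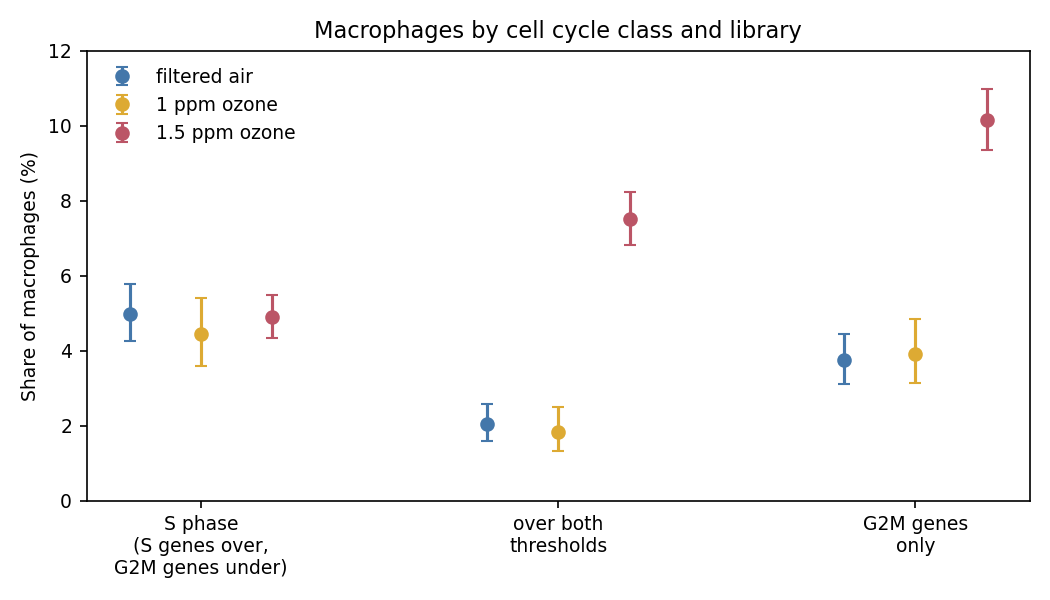
Share of macrophages (%, vertical axis) in 3 cell cycle classes, for filtered air, 1 ppm and 1.5 ppm ozone; points are single pooled libraries and bars are exact binomial 95% intervals of counting error. S phase shares sit between 4.44 and 4.99% in all 3 libraries, while the class over both thresholds reaches 7.5% at 1.5 ppm against 2.04% in air.

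The members did not form a separate island along either measure. The S phase genes took a median of 0.159% of UMIs per member in filtered air, 0.159% in 1 ppm and 0.143% in 1.5 ppm, up to a highest value of 0.414%, 0.325% and 0.333%. Just inside the S phase threshold, from 0.1 to 0.11%, stood 22, 10 and 32 members, and just outside it, from 0.09 to 0.1%, stood 29, 12 and 52 macrophages. Pcna, the sliding clamp of the replication fork and not a gene of the rule, had 326, 294 and 339 CPM (UMIs per 1e6 UMIs of the summed cells) just inside and 346, 286 and 347 CPM just outside. Its level was alike on either side. Tyms, a deoxynucleotide synthesis gene also outside the rule, had 22.7, 29.0 and 41.4 CPM just inside and 26.6, 11.8 and 45.7 CPM just outside. It was thus higher inside in 1 ppm only, on 10 and 12 cells. The 0.1% line cuts through a continuous range of S phase shares. Near the G2 and M phase limit, from 0.04 to 0.05%, stood 8, 3 and 26 members, and just over it, to 0.06%, stood 6, 2 and 16 S-high macrophages.

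**Figure D2:**
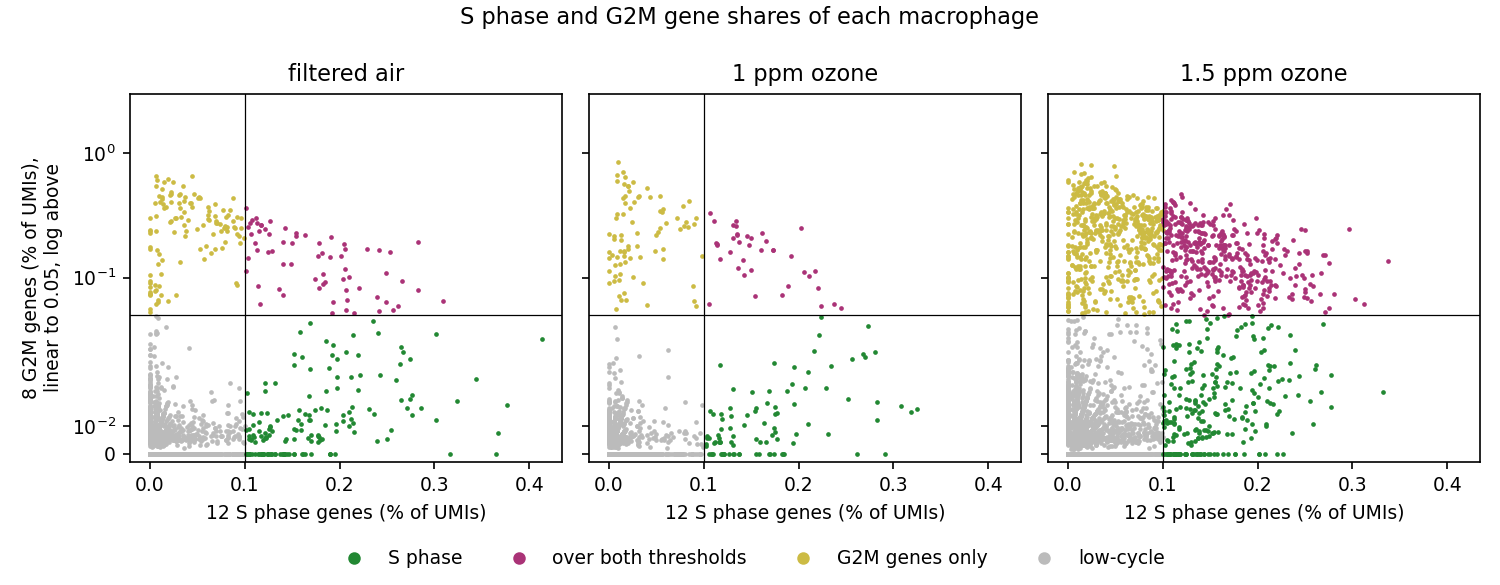
Each point is 1 macrophage, with the percentage of its UMIs from the 12 S phase genes on the horizontal axis and from the 8 G2 and M phase genes on the vertical axis (linear to 0.05%, logarithmic above), in 3 libraries; black lines are the thresholds of 0.1% and 0.05%. S phase members fill the lower right field in every library (164, 94 and 266 cells), and the upper right field holds 67 cells in air, 39 in 1 ppm and 408 in 1.5 ppm.

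Members were deeper than low-cycle macrophages, which are those under both thresholds. Their median was 16663 UMIs against 13574 in low-cycle cells in air, 23602 against 15672 in 1 ppm, and 17125 against 12295.5 in 1.5 ppm. Members with no UMI at all of the 8 mitotic genes numbered 47 of 164 (28.7%) in air, 24 of 94 (25.5%) in 1 ppm and 52 of 266 (19.5%) in 1.5 ppm. The median mitochondrial share of members was 4.36%, 4.01% and 2.31%, lowest in the 1.5 ppm library as in low-cycle cells (4.10%, 3.98% and 2.29%).

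The 12 S phase genes together reached 1726, 1692 and 1519 CPM in members against 133, 117 and 186 CPM in low-cycle macrophages, in the order air, 1 ppm and 1.5 ppm. In the class over both thresholds they reached 1707, 1532 and 1561 CPM, lower than the members in air and 1 ppm and higher in 1.5 ppm. Mcm3, a subunit of the replicative helicase ring, was the most abundant of the 12, with 296, 292 and 225 CPM in members against 31.3, 28.02 and 35.3 CPM in low-cycle cells. At 5000 UMIs per cell, Mcm3 was detected in 76.2%, 78.7% and 69.5% of members and in 13.2%, 11.8% and 11.7% of low-cycle cells. Hells, a chromatin remodelling helicase of replicating cells, had 159, 186 and 150 CPM against 9.11, 6.55 and 13.1 CPM. Uhrf1, which brings the maintenance DNA methyltransferase to new DNA, had 142, 139 and 132 CPM against 3.21, 2.63 and 6.39 CPM.

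Dtl, the substrate receptor of a ubiquitin ligase that clears the licensing factor Cdt1, had 123, 127 and 108 CPM in members against 2.39, 1.85 and 5.82 CPM in low-cycle cells. Mcm2 had 188, 162 and 149 CPM against 14.7, 10.8 and 18.5 CPM, and Mcm6 had 235, 213 and 197 CPM against 21.5, 18.5 and 30.4 CPM. Ung, the uracil glycosylase that removes misincorporated uracil, was lower in the class over both thresholds than in members in every library. Its level was 57.3, 57.4 and 64.3 CPM in members, 12.8, 20.03 and 22.8 CPM in the class over both thresholds and 3.19, 3.60 and 5.08 CPM in low-cycle cells. Uhrf1 ran the other way, with 223, 172 and 187 CPM in the class over both thresholds, above the members in every library.

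Mature neutrophils, which do not divide, gave a measure of stray transcripts. In 79 barcodes outside the macrophages with UMIs of Cxcr2, S100a8 and S100a9, the 12 S phase genes stood at 57.5 CPM (28.7 to 103) and 11 of the 79 barcodes had a UMI of any of them. The 8 G2 and M phase genes stood at 110 CPM there (67.9 to 168). Most of these barcodes, 72, came from the 1.5 ppm library, with a median of 2302 UMIs against 17125 in its members. Air gave 1 such barcode and 1 ppm gave 6, so the background is in effect that of the 1.5 ppm library. The mitotic genes in low-cycle macrophages (33.4, 26.0 and 53.9 CPM) lay below it. In members the summed mitotic genes lay within its interval of 67.9 to 168 CPM in air and 1 ppm, and above that interval in 1.5 ppm. The part of stray transcripts in that level was not tested. The rule itself places the S phase genes of members above the background.

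Beyond the rule, 112 of 3843 genes (2.91%) were at least 2-fold higher in members than in low-cycle macrophages in all 3 libraries, and 1 gene (0.026%) was at least 2-fold lower. A gene was considered when it had at least 50 CPM in the higher class of every library and at least 100 UMIs over both classes. Among the genes highest by their smallest log2 ratio were Brca1, Rrm2, Brip1, Clspn, Pclaf, Ccne2, Slfn9, Asf1b, Top2a, Tk1, Chaf1a, Lig1, Zgrf1 and Wdhd1. The E2F letters stood in the windows of 26 of the 97 matched genes among the 112 (26.8%). Since genes of 1 programme chose the cells, these values describe what the members carry and test nothing.

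The highest gene was Brca1, the scaffold of homologous recombination repair. It had 96.6, 69.9 and 80.5 CPM in members against 2.44, 1.28 and 4.95 CPM in low-cycle cells, in air, 1 ppm and 1.5 ppm. The ratios were 39.6 (31.5 to 50.1), 54.4 (38.4 to 78.7) and 16.3 (13.97 to 18.9). Its helicase partner Brip1 had 138, 117 and 126 CPM against 6.25, 3.57 and 9.03 CPM. The smaller ratio at 1.5 ppm went with the higher low-cycle level there. All 14 of these genes had their smallest ratio in the 1.5 ppm library, where the 12 S phase genes in low-cycle cells also stood highest; the part of that low-cycle level was not tested.

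Pclaf, a small protein that rides on the Pcna clamp, had 148, 154 and 221 CPM in members against 3.54, 2.57 and 17.7 CPM in low-cycle cells. Ccne2, a cyclin E that starts S phase, had 73.6, 99.3 and 72.9 CPM against 2.93, 2.10 and 6.16 CPM. Clspn, the checkpoint adaptor at the fork, had 65.0, 82.4 and 73.3 CPM against 4.40, 3.01 and 5.38 CPM. For every one of these the members of all 3 libraries stood above the low-cycle cells of all 3. Slfn9, a Schlafen family gene, and Zgrf1, a DNA helicase, were less familiar entries, at 84.1, 73.9 and 73.1 CPM against 4.99, 3.38 and 7.10 CPM and at 57.3, 53.9 and 54.3 CPM against 6.37, 5.39 and 7.25 CPM.

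**Figure D3:**
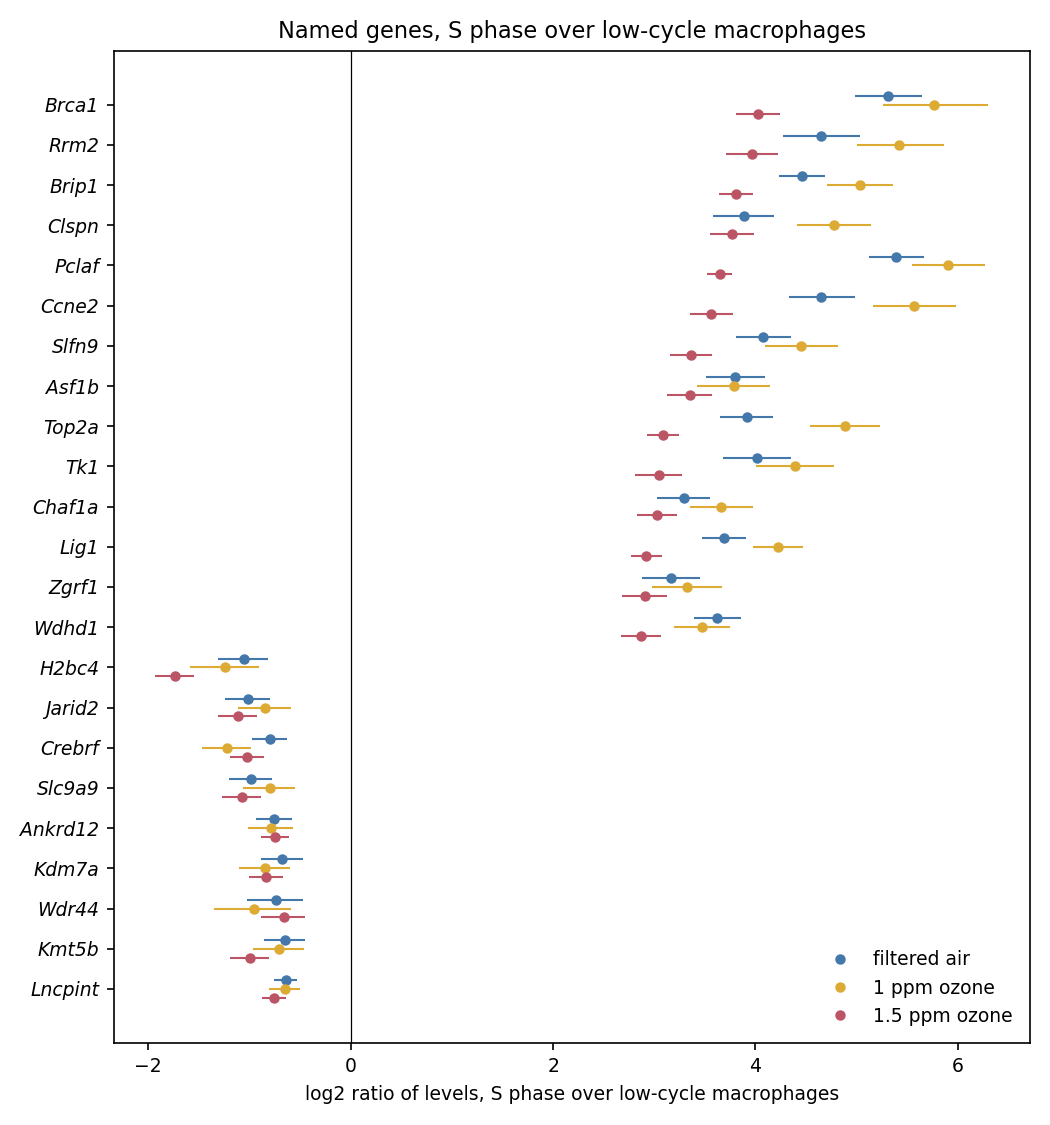
log2 ratio of levels in S phase over low-cycle macrophages (horizontal axis) for 14 of the highest and 9 of the lowest genes by rule, in 3 libraries; points are the ratios of summed UMIs as CPM and lines are exact 95% counting intervals. The 14 higher genes lie between 2.87 and 5.89, with the 1.5 ppm library lowest for each, and the 9 lower genes between -1.73 and -0.64.

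The gene lists used below count members with at least 100 UMIs that were at least 1.5-fold higher or lower in all 3 libraries. Over all 12634 such genes, 836 (6.62%) were higher in members and 149 (1.18%) lower, with medians of 0.01, 0.02 and -0.06 on the log2 scale. Of the origin licensing and firing list, 14 of 15 measured genes were higher and 0 lower, with median log2 ratios of 2.65, 2.77 and 2.20. Cdt1, which loads the Mcm ring together with Cdc6, had 155, 132 and 88.9 CPM in members against 23.5, 19.4 and 19.4 CPM in low-cycle cells. Cdc45, part of the active helicase, had 53.1, 41.4 and 41.7 CPM against 2.65, 2.23 and 4.39 CPM. Licensing factors and factors that act after licensing were thus present together in the summed members.

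All 29 genes of the replication fork and polymerase list were higher, with medians of 2.66, 2.55 and 2.18. Pcna had 501, 532 and 532 CPM in members against 107, 98.1 and 130 CPM in low-cycle cells. Pola1, the catalytic subunit of the priming polymerase, had 442, 389 and 345 CPM against 48.0, 35.4 and 54.2 CPM. Lig1, which joins lagging strand fragments, had 115, 141 and 115 CPM against 8.95, 7.58 and 15.1 CPM. Deoxynucleotide synthesis followed with 12 of 13 genes higher and 0 lower, and medians of 2.98, 2.71 and 2.17.

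Rrm2, the regulated subunit of ribonucleotide reductase, had 55.2, 83.3 and 57.7 CPM in members, 508, 441 and 285 CPM in the class over both thresholds, and 2.20, 1.94 and 3.69 CPM in low-cycle cells. Rrm1, its partner subunit, had 156, 154 and 140 CPM in members against 19.8, 17.05 and 21.1 CPM in low-cycle cells. Tk1, the thymidine salvage kinase, had 55.2, 63.7 and 52.1 CPM in members against 3.42, 3.04 and 6.31 CPM in low-cycle cells. Rrm2 was therefore several times higher beyond the mitotic limit than within the members, while Rrm1 was already high in the members.

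Genes for repackaging new DNA were higher as well, with 16 of 17 in the replication-coupled chromatin assembly list and medians of 1.89, 1.94 and 1.77. Chaf1a, the large subunit of chromatin assembly factor 1, had 70.9, 73.5 and 69.9 CPM in members against 7.24, 5.80 and 8.59 CPM in low-cycle cells. Asf1b, a histone chaperone, had 66.0, 56.1 and 62.3 CPM against 4.73, 4.07 and 6.10 CPM.

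The histone genes themselves did not follow the machinery. Replication-dependent histone genes supply the bulk of new nucleosomes in S phase, and their transcripts mostly lack the poly(A) tail by which this assay captures RNA. Of 52 such genes 18 were measured, and 1 was higher and 3 lower in members, with medians of 0.02, -0.22 and -0.31. Summed, the list stood at 114, 109 and 183 CPM in members and 199, 193 and 302 CPM in low-cycle cells. In the class over both thresholds it stood at 1006, 1366 and 2173 CPM, and in macrophages over the mitotic limit alone at 850, 842 and 1565 CPM. Members thus held the lowest summed histone level of the 4 classes in each library. Many of these genes have near-identical copies whose reads may be split or lost.

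H1f5, a linker histone, was the 1 higher gene, with 4.52, 12.9 and 24.2 CPM in members against 1.50, 1.47 and 6.39 CPM in low-cycle cells. The class over both thresholds held 377, 559 and 767 CPM of it, far above the members. The 3 lower genes were H2bc4, H1f2 and H2bc6. H2bc4, a histone H2B gene, had 49.0, 33.8 and 45.7 CPM in members against 102, 79.9 and 152 CPM in low-cycle cells. It was the 1 gene at least 2-fold lower of all those considered, with ratios of 0.481, 0.424 and 0.301. Its smallest log2 ratio of -1.05 became -0.99 with the mitochondrial limit at 5%, -0.85 after thinning, -0.84 with members chosen on separate UMIs and -0.94 against all other macrophages, each short of 2-fold, as it also was with the mitochondrial limit at 20%.

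The name S phase therefore rests on the replication machinery and not on histone transcripts, and DNA content was not measured. Replication-independent variants were mixed, with 2 of 9 measured higher and 1 lower. H2az2 had 114, 107 and 156 CPM in members against 45.7, 45.3 and 69.5 CPM in low-cycle cells, and H2az1 had 884, 966 and 1560 CPM against 543, 595 and 998 CPM. Both encode H2A.Z, a variant placed at gene starts.

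**Figure D4:**
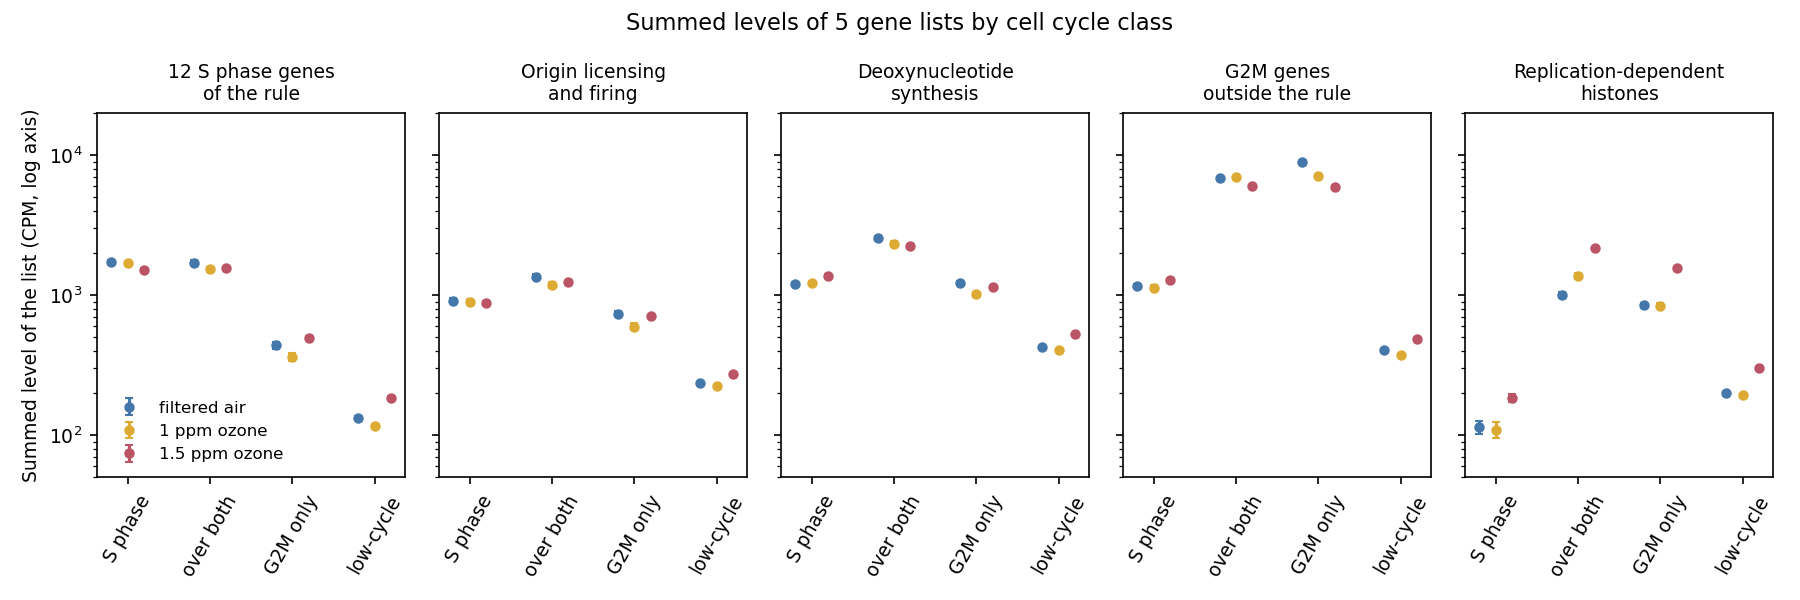
Summed level of 5 gene lists (CPM, logarithmic vertical axis) in S phase macrophages, the class over both thresholds, the class over the G2 and M phase limit alone, and low-cycle macrophages; points are 3 libraries with exact Poisson 95% intervals. The S phase rule genes reach 1519 to 1726 CPM in members, and replication-dependent histones are lowest there, at 109 to 183 CPM.

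Among regulators of entry into S phase, 17 of 28 were higher and 0 lower in members, with medians of 1.36, 1.50 and 1.17. E2f1, an activator E2F, had 114, 120 and 68.5 CPM in members, 103, 97.8 and 73.7 CPM in the class over both thresholds and 30.9, 28.1 and 25.8 CPM in low-cycle cells. E2f8, a repressor E2F that closes the programme, had 14.6, 18.7 and 18.6 CPM in members against 121, 118 and 111 CPM in the class over both thresholds. The activator thus stood about as high in members as in the class over both thresholds, and the repressor did not.

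Ccne1 and Ccne2 were high in members, while Ccna2, the cyclin A of later S phase and G2, stood at 10.1, 10.7 and 11.4 CPM against 196, 186 and 136 CPM in the class over both thresholds. Ccnd2, the D cyclin that links growth factor signals to the cycle, was highest in members, with 431, 355 and 239 CPM. It had 161, 99.4 and 103 CPM in the class over both thresholds and 298, 256 and 224 CPM in low-cycle cells. Ccnd3, another D cyclin, had 220, 236 and 160 CPM in members against 354, 339 and 237 CPM in low-cycle cells. Members were above low-cycle cells for Ccnd2 and below them for Ccnd3 in every library.

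Cdkn1a, which encodes the p21 kinase inhibitor and is a target of p53, had 104, 106 and 146 CPM in members, 362, 299 and 406 CPM in the class over both thresholds and 84.0, 70.4 and 124 CPM in low-cycle cells. Of 16 measured p53 targets, 0 were past 1.5-fold either way in all 3 libraries. DNA damage signalling and repair genes were a different matter, with 21 of 23 higher, 0 lower, and medians of 3.21, 2.87 and 2.26. Exo1, an exonuclease of mismatch and break repair, had 22.6, 32.5 and 27.8 CPM against 1.10, 0.407 and 1.29 CPM in low-cycle cells. Most of these repair genes act at replication forks in undamaged dividing cells too.

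G2 and M phase genes outside the rule were higher in members than in low-cycle cells for 29 of 33 genes, with medians of 2.21, 2.83 and 2.02, although members were chosen for few mitotic transcripts. Top2a, the topoisomerase that untangles sister chromatids, had 87.2, 97.1 and 107 CPM in members, 786, 767 and 728 CPM in the class over both thresholds and 5.79, 3.29 and 12.6 CPM in low-cycle cells. The sum of the list was 1169, 1131 and 1275 CPM in members against 408, 374 and 485 CPM in low-cycle cells. The class over both thresholds held 6826, 7004 and 5987 CPM, so members stood nearer to low-cycle cells. Of the 8 mitotic genes of the rule itself, 4 were higher in members than in low-cycle cells and 1, Cenpa, was lower. Mki67 had 73.3, 78.8 and 120 CPM in members against 5.60, 4.01 and 14.5 CPM in low-cycle cells.

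The members were not uniform. Pclaf, Rrm2 and E2f8 were higher in those with at least 1 UMI of a mitotic rule gene (117, 70 and 214 cells). The remaining members had none (47, 24 and 52 cells). Pclaf stood at 186, 185 and 254 CPM in the members with a mitotic UMI against 31.3, 16.5 and 30.4 CPM in those with none. Rrm2 stood at 70.3, 99.9 and 64.6 CPM against 8.55, 11.8 and 16.6 CPM. E2f8 stood at 19.3, 23.1 and 21.5 CPM against 0, 0 and 1.38 CPM.

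Mcm5 and Mcm6 are genes of the rule, which both sets of members had to meet, so their levels along that division are held together by the choice of cells. Mcm6 stood at 241, 207 and 198 CPM in members with a mitotic UMI against 217, 238 and 191 CPM in those with none, and Mcm5 at 125, 125 and 91.3 CPM against 110, 102 and 70.6 CPM. Pcna, not a gene of the rule, stood at 549, 575 and 558 CPM against 352, 347 and 378 CPM. Members with a mitotic UMI were deeper, with medians of 17614, 24682 and 18447.5 UMIs against 14050, 16453.5 and 12819.5, and depth makes a UMI more likely to be seen. The part of depth was not tested. Replication-dependent histones differed little, at 110, 114 and 184 CPM against 125, 87.4 and 181 CPM.

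Alveolar macrophage genes were present in members, as the rule requires of both classes. Of 34 identity and growth receptor genes, 0 were past 1.5-fold either way in all 3 libraries, beside 6.62% higher and 1.18% lower of all genes. The medians were -0.13, -0.22 and -0.14, and 18 of the 34 were below 0 in all 3 libraries while 1 was above 0 in all 3. Marco, a scavenger receptor and a gene of the rule, was higher, with 281, 260 and 174 CPM in members against 146, 125 and 118 CPM in low-cycle cells. Pparg, the nuclear receptor that sets alveolar macrophage identity, had 631, 455 and 472 CPM against 852, 572 and 593 CPM. Car4, a carbonic anhydrase, had 232, 689 and 512 CPM against 184, 396 and 426 CPM.

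Of 13 measured monocyte and interstitial macrophage genes, 0 were higher and 4 lower in members, namely C1qa, C1qb, C1qc and Cd14. The complement gene C1qb had 0 UMIs in the members of all 3 libraries, which allows up to 1.04, 1.34 and 0.601 CPM, against 3.96, 2.82 and 3.82 CPM in low-cycle cells. Cd14, a co-receptor for bacterial lipopolysaccharide, had 11.1, 15.1 and 17.02 CPM against 17.9, 24.7 and 29.9 CPM. T and NK cell markers gave 0, 0 and 6 UMIs in all members together. B cell markers gave 1 UMI in each library. Neutrophil markers stood at 53.8, 35.6 and 41.1 CPM against 59.1, 56.9 and 66.0 CPM in low-cycle cells. Dendritic cell markers stood at 9.38, 8.46 and 11.8 CPM against 38.8, 15.3 and 27.7 CPM, with 0 of 6 measured higher and 3 lower in members. With at least 6 macrophage genes asked of each cell, the median log2 ratio of this list turned to 0.15 in air and 1.43 in 1 ppm. Under the main rule Ccr7 and Fscn1 had 0 UMIs in the members of both libraries, and log2 ratios used sums with 1 UMI added. The direction of this list there is therefore uncertain, and the part of that addition was not tested. Erythroid markers stood at 10.1, 0.445 and 1.00 CPM against 19.4, 0.251 and 30.1 CPM. Apart from the erythroid list in 1 ppm and T and NK and B cell markers, which rest on a handful of UMIs, none of these lists was higher in members.

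The epithelial list was the 1 marker list with a high level in some members. It stood at 156, 352 and 148 CPM in members against 171, 113 and 1512 CPM in low-cycle cells. Most of the 1512 CPM came from 1 gene, Scgb1a1, at 1322 CPM in low-cycle cells of 1.5 ppm against 25.2 CPM in its members. Epcam had 64.6, 51.2 and 91.1 CPM in members against 58.0, 45.4 and 127 CPM in low-cycle cells. In the 1 ppm library 1 member of 28396 UMIs held 461 UMIs of epithelial markers, 409 of them from Sftpc, the surfactant protein C gene of alveolar type 2 cells. It also had all 8 macrophage genes. Without that member the 1 ppm value was 149 CPM, beside 156 and 148 CPM in the other libraries.

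The genes lowest in members had varied known roles. Among the 10 lowest were Jarid2, Kdm7a and Kmt5b, each of which encodes a regulator of histone methylation. Jarid2 had 61.1, 57.0 and 44.5 CPM in members against 124, 103 and 96.3 CPM in low-cycle cells. Crebrf, a regulator of an endoplasmic reticulum stress factor, had 97.3, 64.6 and 61.3 CPM against 169, 151 and 125 CPM.

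Slc9a9, Ankrd12, Wdr44 and the non-coding RNA Lncpint were also among them, besides H2bc4. Lncpint, a long intergenic RNA induced by p53, had 216, 171 and 115 CPM in members against 338, 270 and 194 CPM in low-cycle cells. Of the unfolded protein response list, 0 of 17 were higher and 3 lower, namely Ddit3, Asns and Trib3. Ddit3, a stress-induced factor that favours cell death, had 9.73, 5.79 and 8.21 CPM against 18.9, 14.8 and 15.03 CPM. In every library the members stood below the low-cycle cells for each of these genes.

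Metabolic lists barely separated the classes. Of cholesterol synthesis 0 of 23 genes, of nuclear oxidative phosphorylation 0 of 28, and of glycolysis 1 of 17 were higher, and none of the 3 lists had a lower gene. The glycolytic gene was Pgk1, phosphoglycerate kinase, with 110, 115 and 123 CPM in members against 70.3, 74.7 and 81.8 CPM in low-cycle cells. Of 16 heat shock genes 0 were higher and 1, Hspa1a, lower. Hsp90aa1, the inducible cytosolic Hsp90, nevertheless had 368, 277 and 596 CPM in members against 225, 167 and 403 CPM, just short of the limit in the 1.5 ppm library.

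The next comparison asked how S phase macrophages of the ozone libraries differed from those of the air library. In 1.5 ppm over air, 45 of 4232 genes (1.06%) in members were higher by 2-fold or more and 20 (0.473%) were lower by as much. Scaling by the median ratio over genes in place of total UMIs moved these counts to 106 higher and 12 lower, because the median gene was at -0.13 on the log2 scale. Low-cycle macrophages of the same libraries gave 36 higher (0.883%) and 13 lower (0.319%) of 4077 genes. All of these compare 1 pool with 1 pool, and the mitochondrial share of the members differed too, at 2.31% in 1.5 ppm against 4.36% in air.

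Replication genes were alike between the members of these libraries, a similarity that the rule in part imposes. Of the 12 S phase genes 0 were past 1.5-fold, with a median log2 ratio of -0.13. Of 28 measured fork and polymerase genes 1 was higher and 2 lower, with a median of -0.05 under total UMI scaling and 0.08 under median scaling. Over all 8400 genes measured, 609 (7.25%) were higher and 680 (8.1%) lower by 1.5-fold, with a median of -0.13. Mitotic genes were less alike. Of 3 measured G2 and M phase genes of the rule, 2 were higher and 0 lower. Outside the rule 6 of 28 were higher and 2 lower, with a median of 0.16 in members and 0.53 in low-cycle cells. Mki67 had 120 CPM in members of 1.5 ppm against 73.3 CPM in air, a ratio of 1.64 (1.40 to 1.92). Its low-cycle levels were 14.5 CPM in 1.5 ppm and 5.60 CPM in air. Ccnd2 had 239 CPM in members of 1.5 ppm against 431 CPM in air, a ratio of 0.556 (0.513 to 0.602), beside 224 CPM in low-cycle cells of 1.5 ppm against 298 CPM in those of air. E2f1 had 68.5 CPM against 114 CPM, a ratio of 0.601 (0.515 to 0.702), beside 25.8 CPM in low-cycle cells of 1.5 ppm against 30.9 CPM in those of air. These were the 2 of 26 measured regulators of S phase entry that were at least 1.5-fold lower, and 2 others were higher.

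Among the genes furthest up at 1.5 ppm were those of protein folding in the endoplasmic reticulum. Manf, a secreted folding stress factor, had 454 CPM in members of 1.5 ppm against 151 CPM in air, a ratio of 3.01 (2.72 to 3.35), with 196 CPM in 1 ppm. Creld2, another folding stress gene, had 64.3 CPM against 17.02 CPM, a ratio of 3.78 (2.79 to 5.21). Sdf2l1, a partner of the chaperone Hspa5, had 220 CPM against 83.7 CPM. The log2 ratios in members were close to those in low-cycle cells for a pair of these genes, at 1.59 against 1.51 for Manf and 1.39 against 1.38 for Sdf2l1, and further apart for Creld2, at 1.89 against 1.57.

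Erh, a conserved RNA processing factor, had 195 CPM in members of 1.5 ppm against 61.5 CPM in air, and Chchd10, a mitochondrial protein, had 74.7 CPM against 22.9 CPM. Wdr89 had 64.9 CPM against 22.6 CPM.

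Fabp5 and Fabp4, fatty acid carriers of macrophages, had larger ratios in members than in low-cycle cells. Fabp5 had 1857 CPM in members of 1.5 ppm against 662 CPM in air, a log2 ratio of 1.49, beside 0.93 in low-cycle cells. Fabp4 had 396 CPM in 1.5 ppm against 161 CPM in air and 113 CPM in 1 ppm. Its ratio of 1.5 ppm over 1 ppm was 3.51 (3.08 to 4.02) in members, a log2 ratio of 1.81, beside 0.54 in low-cycle cells. Both genes were named for their ratios in members, a choice that favours larger ratios there. No test of these differences between classes is possible with 1 library per exposure.

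Of 14 measured heat shock genes 10 were at least 1.5-fold higher at 1.5 ppm and 0 lower, with a median log2 ratio of 0.73 in members and 0.79 in low-cycle cells. Hspa8, the constitutive Hsp70, had 1848 CPM in members of 1.5 ppm against 898 CPM in air, a ratio of 2.06 (1.97 to 2.15). Dnaja1, its co-chaperone, had 320 CPM against 138 CPM, and 114 CPM in 1 ppm. Of 14 unfolded protein response genes 5 were higher and 0 lower. Of 20 cholesterol synthesis genes 9 were higher and 0 lower, with a median of 0.50 in members and 0.89 in low-cycle cells.

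Targets of LXR, the nuclear receptor that senses sterols, lay the other way, with 1 of 12 higher and 6 lower at 1.5 ppm and a median of -0.58 in members, beside -0.49 in low-cycle cells. Pltp, a phospholipid transfer protein, had 33.4 CPM in members of 1.5 ppm against 78.8 CPM in air, a ratio of 0.424 (0.345 to 0.520). Abca1, the cholesterol exporter, had 107 CPM against 177 CPM. Scd2, a desaturase, was the 1 higher gene of the list, with a log2 ratio of 0.80.

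The metallothioneins Mt1 and Mt2, which bind zinc and other metals, were lower in the members of both ozone libraries than in air. Mt2 had 67.7 CPM in 1.5 ppm and 38.3 CPM in 1 ppm against 244 CPM in air, with ratios of 0.278 (0.243 to 0.317) and 0.157 (0.124 to 0.197). Mt1 had 494 CPM in 1.5 ppm and 574 CPM in 1 ppm against 1361 CPM in air. Mt2 came from few cells, with a UMI in 61 of 266, 23 of 94 and 71 of 164 members, and 1 member held 11.5 to 12.1% of its UMIs in each library.

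Rbfox1, a splicing factor gene, was the lowest at 1.5 ppm, with 15.02 CPM in members against 73.3 CPM in air, a ratio of 0.205 (0.155 to 0.268), and 56.6 CPM in 1 ppm. Lepr, the leptin receptor, had 107 CPM against 281 CPM, and Patj, a polarity scaffold, had 128 CPM against 329 CPM. Adam22, Acaa1b and Dcun1d3 were the remaining named genes, at 62.7, 26.8 and 27.4 CPM in 1.5 ppm against 163, 94.8 and 68.1 CPM in air. For all 6 the log2 ratio in members was lower than that in low-cycle cells. For Rbfox1 it was -2.27 against -1.60 and for Adam22 -1.38 against -0.87. Mt2 and Mt1, named by the same ranking, went the other way, at -1.85 against -2.28 and -1.46 against -1.60. All these genes were named for their ratios in members, a choice that favours larger changes there. The difference between classes was not tested.

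**Figure D5:**
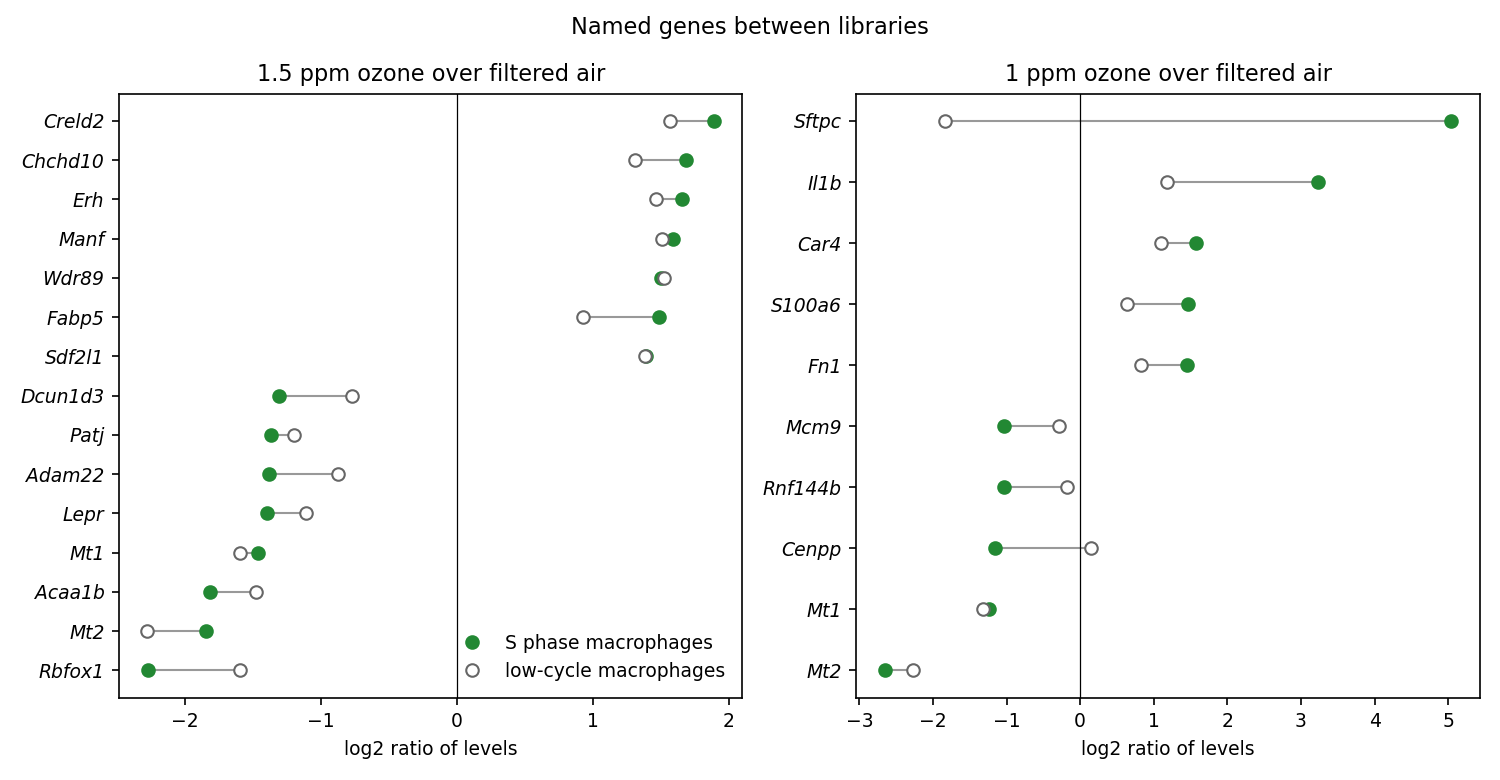
log2 ratio of levels between libraries (horizontal axis) for the named genes, 1.5 ppm over filtered air on the left and 1 ppm over filtered air on the right; filled points are S phase macrophages and open points low-cycle macrophages, each a ratio of 2 pooled libraries with no replicate. Manf lies at 1.59 and 1.51, and Sftpc at 5.04 in S phase and -1.84 in low-cycle macrophages, with 409 of its 411 UMIs in the 1 ppm members from 1 cell.

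In 1 ppm over air, 9 of 4202 genes (0.214%) in members were higher by 2-fold or more and 6 (0.143%) were lower by as much, or 10 and 3 with median scaling. Low-cycle cells gave 2 higher (0.0502%) and 8 lower (0.201%) of 3981. At 1.5-fold, 2.71% of 8400 genes were higher and 4.2% lower in members. Of 20 cholesterol synthesis genes 7 were higher and 0 lower, and of 14 heat shock genes 0 were higher and 2 lower. Of 12 LXR targets 3 were higher and 0 lower, but the list as a whole did not move. Its log2 ratios were above 0 for 6 genes and below 0 for 6, with a median of 0.04 in members and 0.03 in low-cycle cells. Car4 had 689 CPM in members of 1 ppm against 232 CPM in air, a ratio of 2.97 (2.71 to 3.26), and 512 CPM in 1.5 ppm. Fn1, the matrix protein fibronectin, had 632 CPM in 1 ppm against 230 CPM in air, with 531 CPM in 1.5 ppm, and its ratio of 1 ppm over air was 2.75 (2.504 to 3.02). Both were detected broadly, Car4 in 91 and Fn1 in 79 of 94 members of 1 ppm. Low-cycle cells rose too, with log2 ratios of 1.10 for Car4 and 0.83 for Fn1, beside 1.57 and 1.46 in members.

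Il1b, the cytokine interleukin-1 beta, had 51.7 CPM in members of 1 ppm against 5.21 CPM in air, a ratio of 9.91 (5.77 to 18.3), on 116 against 15 UMIs. It was detected in 18 of 94 members against 10 of 164, and 1 member held 26.7% of its UMIs in 1 ppm. Low-cycle cells had 30.5 CPM of Il1b in 1 ppm against 13.5 CPM in air. In 1.5 ppm it stood at 27.4 CPM in members and 62.5 CPM in low-cycle cells. S100a6, a calcium-binding protein, had 70.8 CPM in members of 1 ppm against 25.4 CPM in those of air, with 18.9% of its 1 ppm UMIs in 1 member. Its low-cycle levels were 69.3 CPM in 1 ppm and 44.5 CPM in air. The lower genes Cenpp, Rnf144b and Mcm9 had 40.5, 29.4 and 31.6 CPM in 1 ppm against 91.4, 60.8 and 65.3 CPM in air. Cenpp, a centromere protein, stood at 3.54 CPM in low-cycle cells of 1 ppm against 3.21 CPM in air, so it is a gene of cycling cells here. Mcm9, a recombination helicase related to the Mcm ring, stood at 36.04 CPM in low-cycle cells of 1 ppm against 44.04 CPM in those of air.

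In 1.5 ppm over 1 ppm, 13 of 4129 genes (0.315%) were at least 2-fold higher and 11 (0.266%) lower in members, or 19 and 9 with median scaling. Low-cycle cells gave 25 higher (0.629%) and 5 lower (0.126%) of 3972. The 3 comparisons share libraries and are not independent. At 1.5-fold, 4.37% of 8400 genes were higher and 4.9% lower in members, while 11 of 14 heat shock genes were higher and 6 of 12 LXR targets lower. Hsph1, an Hsp110 chaperone, had 97.7 CPM in members of 1.5 ppm against 32.5 CPM in 1 ppm, with 51.8 CPM in air. Egfem1 had 91.7 CPM against 248 CPM, and 1 member held 23.3% of its 1 ppm UMIs. Cdh1, the epithelial cadherin, which alveolar macrophages also express, had 30.04 CPM against 79.3 CPM, and 1 member held 13.5% of its 1 ppm UMIs. In low-cycle cells Cdh1 went the other way, at 45.3 CPM in 1.5 ppm against 37.2 CPM in 1 ppm. Scd1, a desaturase, had 25.2 CPM in members of 1.5 ppm against 60.6 CPM in those of 1 ppm. Without the member holding most of its UMIs in each library, the log2 ratio of Scd1 was -0.82, under the 2-fold limit.

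Macrophages left out by the filters also included cells that met the cell cycle rule. Among those over 10% mitochondrial UMIs the share was 3.21% in air (2.07 to 4.74%), 5.18% in 1 ppm (3.19 to 7.89%) and 1.61% in 1.5 ppm (0.0408 to 8.66%). Among those under 5000 UMIs it was 4.26%, 1.61% and 4.49%, from 94, 62 and 534 barcodes. These intervals overlap those of the main shares in every library.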

How the data were processed

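Each library was 10x Genomics Chromium 3' v3.1 (poly(A) capture), per the labels' protocols, and the authors deposited whole-number UMI counts for every gene and barcode. The headers name Cell Ranger 8.0.0, and GRCm39 (mm39) comes from the submitters' notes on processing. How reads in introns were treated is not stated in those sources. No deposited column was left unused (0).

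Counts were analysed with pandas 2.3.3, scipy 1.17.1 and numpy 2.4.6 under Python 3.11.15, with Scrublet from scanpy 1.11.5 for doublets. Counts were summed per class and library and given as CPM with exact Poisson intervals. Ratios had exact conditional intervals, shares exact Clopper-Pearson intervals, and log2 ratios used sums with 1 UMI added. These cover counting error only, and 1 library per exposure allows no test. The members and gene lists were chosen with earlier results of these data known. Between libraries, genes needed 50 CPM where they were higher and 100 UMIs in the 3 libraries together. The rule named the 15 highest and 10 lowest genes within libraries by their smallest log2 ratio over the 3, the 8 furthest each way for 1.5 ppm over air, and 5 each way for the other library pairs. Names of mitochondrial, ribosomal, haemoglobin, Xist, Y-linked, Gm and Rik genes and genes of the cell rule stayed out of that ranking. Some members of the gene lists were named after their values were seen. Alternatives covered the mitochondrial limit, UMI minimum, thresholds, macrophage gene minimum, thinning, members chosen on 1 part of the UMIs and measured on the rest, no minimum CPM, median-ratio scaling and all other macrophages as comparison. The computation was tested on simulated counts. Promoter windows came from RefSeq GRCm38.p6, and no coordinates of the authors' build were used. Some genes that the rule named are not reported here.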

Additional observations from a re-analysis of the deposited data

Results flagged for a closer look

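Sftpc, the surfactant protein C gene of alveolar type 2 cells, moved in opposite ways in S phase and low-cycle macrophages. In 1 ppm over air its log2 ratio was 5.04 in S phase macrophages, with 183 CPM in 1 ppm against 5.21 CPM in air, and -1.84 in low-cycle macrophages. In 1.5 ppm over 1 ppm it was -7.84 in S phase macrophages, with 0.601 CPM (3 UMIs) against 183 CPM, and 1.34 in low-cycle macrophages. The difference between the classes was not tested. A single 1 ppm member held 409 of the 411 UMIs, and its S phase share of 0.102% was just inside the threshold. Without the member holding most Sftpc UMIs in each library compared (2 UMIs in air, 409 in 1 ppm, 1 in 1.5 ppm), the log2 ratios were -1.85 and -1.17, on 2 UMIs in 1 ppm and 2 in 1.5 ppm against 13 in air.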

How the results depend on the processing

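No paired analysis was possible because each exposure had 1 pooled library and no result comes from a test. Member shares in air, 1 ppm and 1.5 ppm were 2.83, 2.5 and 2.17% with the S phase threshold at 0.15%, and 2.56, 2.31 and 2.83% without the 6 Mcm genes at a threshold of 0.05%. They were 6.05% in air and 6.36% in 1.5 ppm after thinning to 5000 UMIs. In 1.5 ppm the share was 5.52% at a minimum of 10000 UMIs and 6.73% with the G2 and M phase limit at 0.1%. The air and 1 ppm shares at these settings are not reported here.

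Genes 2-fold higher in members within libraries, 112 in the report, were 448 with no minimum CPM and 42 against all other macrophages. The 1 lower gene became 0 with the mitochondrial limit at 20% or 5%, after thinning, with members chosen on separate UMIs or against all other macrophages, 2 at the 0.15% threshold and 22 with no minimum CPM. For 1.5 ppm over air, the 45 higher and 20 lower genes became 72 and 35 at 0.15%, 106 and 12 with median scaling, and 95 and 56 with no minimum CPM. For 1 ppm over air, the 9 higher and 6 lower became 14 and 13 with the mitochondrial limit at 5%, and 35 and 47 with no minimum CPM; the lower count was 13 at 0.15% and 3 with median scaling. For 1.5 ppm over 1 ppm, the 13 higher and 11 lower became 31 and 23 at 0.15% and 61 and 47 with no minimum CPM, and the lower count was 17 with the mitochondrial limit at 5%.

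The log2 ratio of Sftpc in 1 ppm over air turned to -2.10 at 0.15%, -1.45 after thinning and -1.85 without the member holding most UMIs in each library, and in 1.5 ppm over 1 ppm to 0.76 at 0.15%. Against all other macrophages, which include the mitotic ones, the median log2 ratio of the mitotic rule genes was -2.21, -2.30 and -2.90, and that of mitotic genes outside the rule -0.21 in air and -0.94 in 1.5 ppm. Dendritic cell markers turned to 0.15 in air and 1.43 in 1 ppm with at least 6 macrophage genes, and epithelial markers in 1 ppm to -0.12 after thinning. The cause was not tested. Of 396 values of named genes between libraries 45 moved and 4 reversed, of 275 within libraries 31 moved and 0 reversed, and of 1656 list medians 342 moved and 8 reversed. Leaving out, in each library compared, the member holding most UMIs of a gene and a mitotic limit of 0.02% inside members were added after seeing the data.

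What limits these results is 1 pool per exposure, 94 to 266 members per library, a mitochondrial filter that removed unequal shares, doublets that could not be removed, and stray transcripts at about the level of the lowest genes.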

Other observations

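Nuclear genes of oxidative phosphorylation stood higher in the S phase macrophages of both ozone libraries than in those of air. Of 28 measured, 10 were at least 1.5-fold higher in 1.5 ppm over air and 0 lower, with a median log2 ratio of 0.45 in S phase and 0.32 in low-cycle macrophages, beside 7.25% higher and 8.1% lower of all genes. In 1 ppm over air 0 of 28 passed that limit either way, but all 28 were above 0, with a median of 0.29 in S phase and 0.31 in low-cycle macrophages. In 1.5 ppm over 1 ppm the median in S phase macrophages was 0.08. Summed, the list stood at 6671 CPM in the S phase macrophages of air, 8366 CPM in 1 ppm and 9549 CPM in 1.5 ppm. Spp1, the secreted matrix protein osteopontin, had 735 CPM in 1.5 ppm against 299 CPM in air, beside log2 ratios of 1.30 in S phase and 1.27 in low-cycle macrophages. Msr1, a scavenger receptor, had 38.5 CPM in 1.5 ppm against 15.6 CPM in air. The mitochondrial share of the same S phase macrophages was lower in 1.5 ppm than in air, 2.31% against 4.36%, and its part in these values was not tested.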
